A study of Saccharomyces cerevisiae with 4 samples.

Results

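AGA1, AGA2, SAG1 and FIG2 encode the cell-surface proteins by which mating yeast cells hold on to each other. They were taken by open reading frame name (YNR044W, YGL032C, YJR004C and YCR089W), and all 4 were found among the 6207 yeast rows of the deposited table. AGA1 and AGA2 rose in hog1 cells of Saccharomyces cerevisiae treated with Zymolyase, 31.8-fold and 8.39-fold. FIG2 and SAG1 lay above 0 on each of the 3 arrays on which they had a value. Of 16 possible values of the 4 genes, 14 were present and 2 were blank, and all 14 were above 0, from 1.06 to 6.19 on the log2 scale.

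Haploid yeast cells of the opposite mating types a and alpha signal to each other with pheromones. The pheromone receptor acts through a G protein and a MAP kinase cascade on the transcription factor Ste12, which turns on the genes of adhesion, cell fusion and nuclear fusion. Adhesion rests on agglutinins: Aga1, anchored in the wall, holds the small secreted subunit Aga2 by disulfide bonds on a cells, and Aga2 binds Sag1, the alpha-agglutinin on the wall of alpha cells. AGA2 is classed as an a-specific gene and SAG1 as an alpha-specific gene, while AGA1 and FIG2 can be induced by pheromone in either type. Fig2 is a wall protein related to Aga1 that is made in mating cells.

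The cells were a hog1 mutant, altered in the gene of the MAP kinase of the high-osmolarity pathway, grown in YEPD at 24 °C. A culture was split, one part received 5 units/ml of Zymolyase 100T, an enzyme preparation that digests wall beta-1,3-glucan, and RNA of both parts was taken at 3 h. RNA of 2 cultures was compared on 4 two-colour arrays, with the treated RNA in Cy3 on arrays 1 and 3 and in Cy5 on the other 2. Not given by the labels are the hog1 allele, the strain background, the mating type and which arrays share a culture, and no wild-type cells were analysed here. HOG1 was blank on all 4 arrays, so the mutation could not be checked.

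All values are log2 ratios of treated over untreated cells; arrays 2 and 4, which carry the opposite dyes, were multiplied by −1. This direction is likely but not stated by the sources used here. It rests on the values: with the signs turned, 100% of the 9281 values below 0 fell on linear ratios of 4 decimals within the rounding of the table, where 56.5% would by chance, so that 1 numerator served all arrays; PRM1, FIG1 and PGU1, genes with little expression before stimulation, are high in this reading. Before the turn, Pearson r across genes was −0.57 to −0.24 between arrays with opposite dyes and 0.54 and 0.69 between arrays with the same dyes. With the opposite numerator every sign below would turn. Arrays 1 to 4 had values for 2794, 4162, 5322 and 5127 yeast rows, and the 2715 rows with 4 values were tested with limma over cultures. Their median mean log2 ratio was −0.05. A gene was called at an adjusted p under 0.05, and 55 rows (2.03%) were called higher and 5 lower.

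AGA1, the anchor subunit of a-agglutinin, had log2 ratios of 4.91, 3.88, 5.26 and 5.92 on arrays 1 to 4, which are 30.0-fold, 14.8-fold, 38.2-fold and 60.4-fold. All 4 arrays showed the rise, the lowest was array 2 and the highest array 4, both with the treated RNA in Cy5. The mean was 4.99 ± 0.85 (SD, n = 4 arrays), with an adjusted p = 0.00255 by limma. It was the largest value of all 5322 rows on array 3 and ranked 3 of 2794, 8 of 4162 and 5 of 5127 rows on arrays 1, 2 and 4. By mean ratio it was rank 5 of the 2715 tested rows. If arrays 1+2 and 3+4 shared a culture, the culture means were 4.40 and 5.59, and if arrays 1+4 and 3+2 did, they were 5.41 and 4.57. The mean of the Cy5-treated arrays differed from that of the Cy3-treated arrays by −0.18. In RNA from a whole culture, more transcript per cell and more cells that express the gene cannot be told apart.

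AGA2, the subunit that binds the partner cell, had log2 ratios of 3.04, 2.61, 3.44 and 3.18 on arrays 1 to 4, or 8.25-fold, 6.11-fold, 10.8-fold and 9.08-fold. The 4 values lay within 0.83 of each other, and array 2 was again the lowest. The mean was 3.07 ± 0.35 (SD, n = 4 arrays), with an adjusted p = 0.00211 by limma, at rank 12 of the 2715 tested rows. Its place on the single arrays was 16 on arrays 1 and 2, 22 on array 3 and 17 on array 4. The culture means were 2.83 and 3.31 in the first pairing and 3.11 and 3.02 in the second, and the Cy5-treated mean differed from the Cy3-treated mean by −0.34. Both tested members were thus called higher, against 2.03% of all tested rows. For comparison, the SD over 4 arrays had a median of 0.29 over all tested rows and of 0.42 over the 55 called higher, of which 8 had a larger SD than AGA1 and 32 a larger SD than AGA2.

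**Figure D1:**
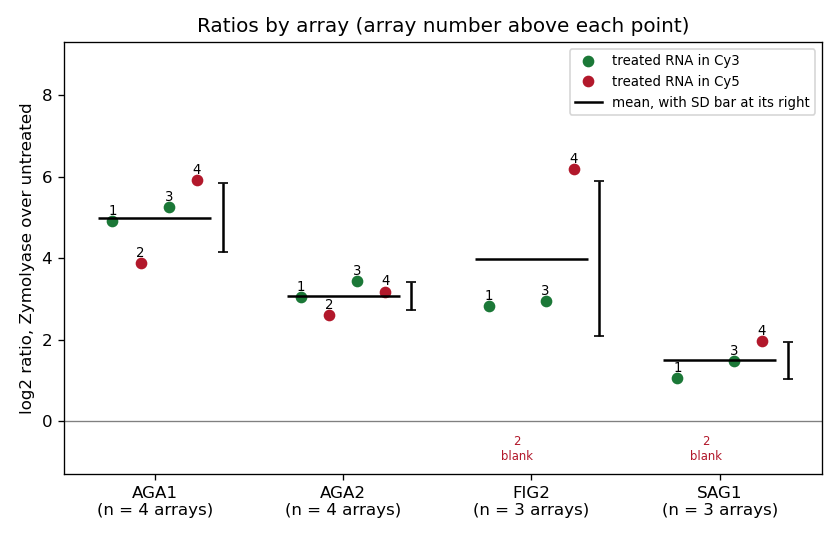
Log2 ratios of Zymolyase-treated over untreated hog1 cells for AGA1, AGA2, FIG2 and SAG1; each point is 1 array, coloured by the dye of the treated RNA and numbered by array, the black line is the mean and the bar at its right the SD. All 14 values are above 0; FIG2 and SAG1 are blank on array 2, and FIG2 has 6.19 on array 4 against 2.83 and 2.96 on arrays 1 and 3.

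The subunits of a-agglutinin moved by different amounts. AGA1 exceeded AGA2 by 1.86, 1.27, 1.82 and 2.73 on arrays 1 to 4, a mean of 1.92 ± 0.60 (SD, n = 4 arrays) that corresponds to a 3.79-fold larger ratio for the anchor. The direction was the same on all 4 arrays. An exact two-sided sign-turn test gave the smallest p that 4 arrays allow, which was 0.375 after Benjamini-Hochberg adjustment over the 6 pairs of genes. The test treats the arrays as independent, although they come from 2 cultures; over 2 cultures no exact two-sided p could fall below 0.5. The difference is one of ratios and says nothing on which transcript was more abundant. Spot intensities were not used, so whether the untreated signal lay near background was not checked, for these or the other large ratios.

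FIG2 had log2 ratios of 2.83, 2.96 and 6.19 on arrays 1, 3 and 4, or 7.11-fold, 7.76-fold and 73.1-fold, and was blank on array 2. All 3 values were high, but the array with the treated RNA in Cy5 stood 3.30 above the mean of the other 2. The ratio ranked 18 of 2794 on array 1, 28 of 5322 on array 3 and 4 of 5127 on array 4. The mean over these arrays was 3.99 ± 1.91 (SD, n = 3 arrays), and 2.89 without array 4. The size of the FIG2 ratio therefore rests on array 4, while its sign does not.

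Because of the blank, FIG2 was outside the 4-array fit. With the culture means taken from the arrays present, it was called over the 5107 rows with a value in each dye orientation (log2 ratio 3.72, adjusted p = 0.00982 by limma), where 1.17% of rows were called higher. It was not called over the 2744 rows with values on arrays 1, 3 and 4, of which 0.802% were called higher (adjusted p = 0.0636 by limma). The values of FIG2 were the same in both fits, which differed in the other rows that set the variance model and the adjustment.

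The excess of FIG2 on array 4 over the mean of arrays 1 and 3 was the largest among the 2744 rows, whose differences had a median of −0.04 and an SD of 0.54. The next 3 were PRM1 (2.81), which acts in plasma membrane fusion, PRM3 (2.62), which acts in nuclear fusion, and ZPS1 (2.45), these 3 chosen after their values were seen. On array 2, the other array with treated RNA in Cy5, PRM1, PRM3 and ZPS1 had log2 ratios of 10.55, 6.58 and 3.69. The same difference was 0.84 for AGA1 (rank 69), 0.70 for SAG1 (rank 142) and −0.06 for AGA2 (rank 1423). For FIG2 dye orientation and array cannot be told apart, since it had 1 value with the treated RNA in Cy5. In both possible pairings arrays 1 and 3, with 2.83 and 2.96, came from different cultures, and array 4, with 6.19, shared a culture with 1 of them. The cause of the difference was not tested.

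**Figure D2:**
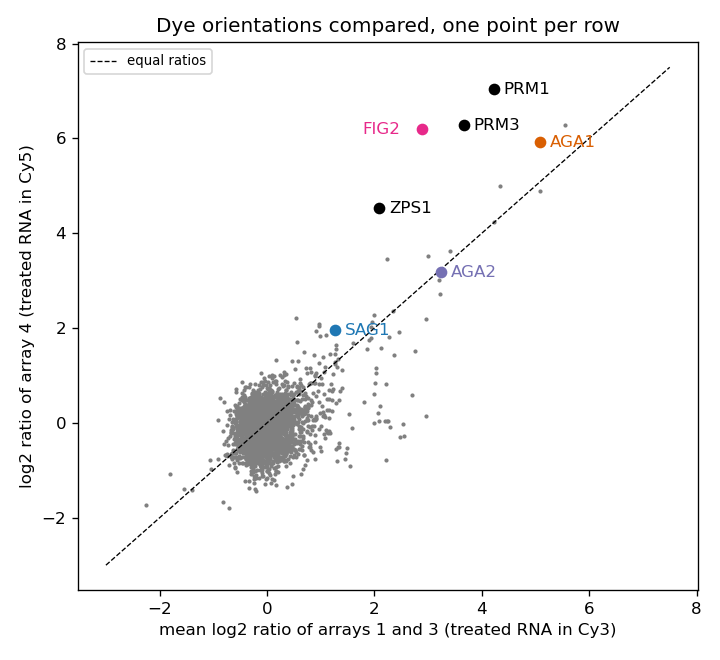
Log2 ratio on array 4 (treated RNA in Cy5, vertical axis) against the mean log2 ratio of arrays 1 and 3 (treated RNA in Cy3, horizontal axis), 1 point for each of 2744 rows, with a dashed line of equal ratios. FIG2, PRM1, PRM3 and ZPS1 lie 2.45 to 3.30 above the line, and AGA2 lies 0.06 below it.

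SAG1, the alpha-agglutinin, had the smallest ratios of the 4 genes, with 1.06, 1.48 and 1.96 on arrays 1, 3 and 4, or 2.08-fold, 2.78-fold and 3.90-fold, and it was also blank on array 2. All 3 values were above 2-fold, and the highest was on array 4. The mean was 1.50 ± 0.45 (SD, n = 3 arrays), 2.83-fold. The ratio ranked 70 of 2794 rows on array 1, 121 of 5322 on array 3 and 30 of 5127 on array 4. SAG1 was called over the 5107 rows with a value in each dye orientation (log2 ratio 1.44, adjusted p = 0.0364 by limma) and not over the 2744 rows of arrays 1, 3 and 4 (adjusted p = 0.0624 by limma).

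The blanks of FIG2 and SAG1 fell on the same array. Of the 2744 rows with values on arrays 1, 3 and 4, only 29 (1.06%) were blank on array 2. Of these 29, 5 had a mean log2 ratio of at least 1 and lay above 0 on all 3 arrays (17.2%), against 68 of the other 2715 (2.50%). The first share is raised by FIG2 and SAG1, whose blanks prompted the count and which are among the 5. Beside FIG2 and SAG1 these were AFR1, which acts in the shape of the mating projection, with 2.37, 2.09 and 3.46 on arrays 1, 3 and 4, PCL2, a G1 cyclin, with 0.85, 1.67 and 1.28, and YOR296W with 1.01, 1.20 and 1.85; the set was chosen after its values were seen. The rule that left rows blank is not given in the sources used here.

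On the arrays that hold all 4 genes, the order was AGA1, AGA2, FIG2 and SAG1 on arrays 1 and 3, and FIG2, AGA1, AGA2 and SAG1 on array 4. AGA1 exceeded SAG1 by 3.85, 3.78 and 3.95 on arrays 1, 3 and 4, a mean of 3.86 ± 0.09 (SD, n = 3 arrays), and AGA2 exceeded SAG1 by 1.99, 1.96 and 1.22. FIG2 exceeded SAG1 on all 3 arrays, by 1.77, 1.48 and 4.23. For these 3 pairs the exact two-sided sign-turn test gave p = 0.25, the smallest that 3 arrays allow, and 0.375 after adjustment over 6 pairs; here too arrays that share a culture were treated as independent. AGA2 and FIG2 did not keep an order, with AGA2 minus FIG2 at 0.21, 0.48 and −3.01 (exact p = 1, adjusted 1), nor did AGA1 and FIG2, with 2.08, 2.30 and −0.27 (exact p = 0.5, adjusted 0.6). Over the mean of arrays 1, 3 and 4, AGA1 was rank 2, FIG2 8, AGA2 10 and SAG1 44 of 2744 rows. All 4 met the rule of a mean log2 ratio of at least 1 with each of the 3 values above 0, which 2.66% of these rows met.

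**Figure D3:**
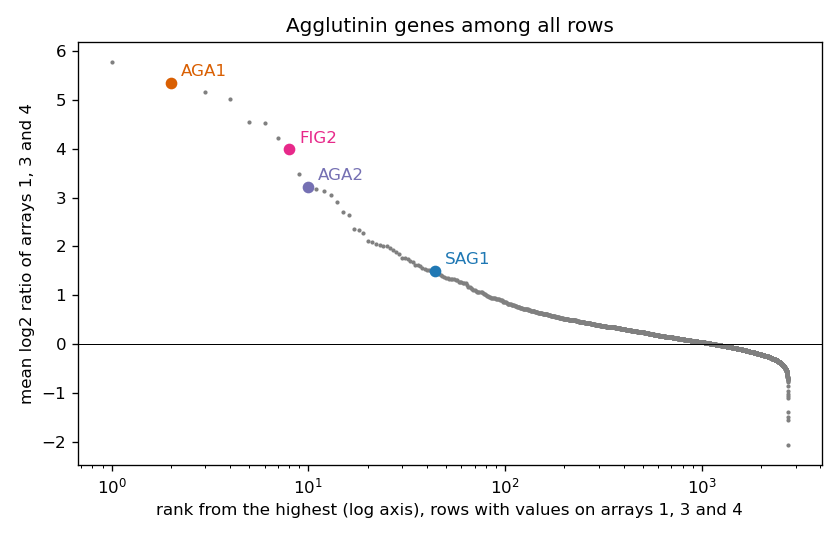
Mean log2 ratio of arrays 1, 3 and 4 (vertical axis) for the 2744 rows with values on these arrays, ordered from the highest (horizontal log axis). AGA1 is rank 2, FIG2 8, AGA2 10 and SAG1 44.

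The rows nearest to each gene were found by the root mean square difference of log2 ratios over the arrays on which that gene had a value. Nearest to AGA1, over 4 arrays, was FIG1, which encodes a pheromone-induced membrane protein, at a distance of 0.54. FIG1 had log2 ratios of 5.86, 4.25, 5.23 and 6.28 on arrays 1 to 4. Like AGA1 it was lowest on array 2 and highest on array 4, but it was picked for its nearness to the AGA1 values. PRM6 (0.94), YIL082W (1.35), PGU1, a polygalacturonase (1.37), and PRM3 (1.69) followed. Nearest to AGA2 was PRM2, a pheromone-regulated membrane protein, at 0.40, with 3.50, 2.55, 2.96 and 2.71. It was followed by ASG7, an a-specific regulator of signalling (0.63), the MAP kinase KSS1 (0.83), NFG1 (0.86) and PRM5, which is induced by wall stress (0.87). AGA2 came at place 8 in the order of AGA1, at 1.99, and AGA1 came at place 42 in the order of AGA2.

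Nearest to FIG2, over 3 arrays, was PRM3 at 0.63, with 3.59, 3.74 and 6.28 on arrays 1, 3 and 4, and PRM1 (1.19), ZPS1 (1.21), PRM6 (1.39) and ASG7 (1.58) followed. Nearest to SAG1 was YOR296W at 0.17, which was likewise blank on array 2. The next were MSG5, a phosphatase of MAP kinases (0.27), HYM1 (0.29), PRM4 (0.31) and SLT2, the MAP kinase of the cell wall integrity pathway (0.32). No distance was tested.

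**Figure D4:**
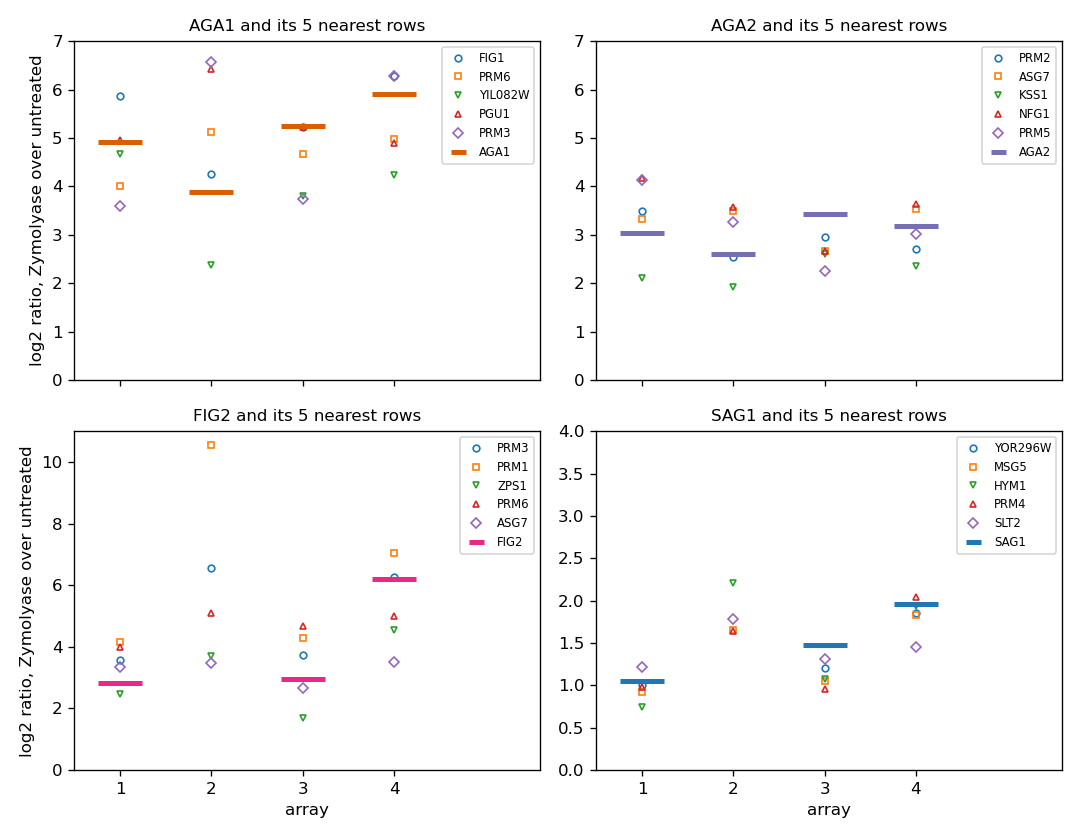
Log2 ratios (vertical axis) on arrays 1 to 4 (horizontal axis) of AGA1, AGA2, FIG2 and SAG1 (thick dashes) and of the 5 rows nearest to each (open symbols); vertical ranges differ between the panels. FIG1 lies within 0.952 of AGA1 on every array, and PRM3 is lower on arrays 1 and 3 than on array 4, as FIG2 is.

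Other genes of mating were read from lists chosen with earlier results of these data known. Among the pheromone-induced genes, PRM1 and FIG1 had also served to choose the direction of the ratios. Their rise is therefore no support for that direction. Of 30 pheromone-induced genes other than the 4, 22 were tested, 16 rose and 0 fell, where 2.03% of all tested rows were called higher, 6 were not called, 21 had a mean above 0, and the median log2 ratio was 1.72, against −0.05 over all tested rows. The largest means were PRM1 (6.51 ± 3.01), FIG1 (5.40 ± 0.88) and PRM3 (5.05 ± 1.60), so that 3 of these genes had a larger mean than AGA1. On arrays 1 and 3 AGA1 (4.91 and 5.26) lay above PRM1 (4.15 and 4.29) and PRM3 (3.59 and 3.74). On arrays 2 and 4, with treated RNA in Cy5, PRM1 and PRM3 lay above AGA1. Without array 2, where 1 culture mean was a single array, 9 of the 22 were called higher, as were 0.81% of all tested rows.

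AGA2 was set beside the other a-specific genes. Of 6, all tested, 4 rose and 0 fell, with a median of 1.15; the share called higher over all tested rows was 2.03%. ASG7 rose 9.52-fold (3.25 ± 0.40, adjusted p = 0.00101 by limma), BAR1, which encodes the protease that breaks down alpha-factor, 3.82-fold (1.93 ± 0.24), STE2, the alpha-factor receptor, 2.28-fold (1.19 ± 0.31) and MFA1, one of the a-factor genes, 2.17-fold (1.12 ± 0.21). STE6, the a-factor exporter, had 0.46 ± 0.29 and MFA2, the other a-factor gene, 0.40 ± 0.21, and neither was called. ASG7 alone among the 6 had a larger mean than AGA2. Without array 2, 2 of the 6 were called, ASG7 and BAR1, against 0.81% of all tested rows.

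SAG1 was set beside the other alpha-specific genes, of which only 1 of 4 could be tested. STE3, the a-factor receptor, and MF(ALPHA)1, the main alpha-factor gene, were blank on all 4 arrays. MF(ALPHA)2, the second alpha-factor gene, had 0.28, −0.68 and 0.65 on arrays 2, 3 and 4. AFB1, which encodes a barrier against a-factor, rose 2.20-fold (1.14 ± 0.66, adjusted p = 0.0188 by limma), at 0.64 and 0.50 where treated RNA was in Cy3 (arrays 1, 3) and 1.72 and 1.70 on arrays 2 and 4. The call was lost without array 2 (adjusted p = 0.418) or without array 4 (adjusted p = 0.192), on the Cy3-treated arrays alone and with equal scale between arrays.

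Flocculins, which are wall adhesins of cells that clump without mating, had values near 0. Of 5, 3 were tested with limma, 0 were called, and 0 had an unadjusted p under 0.05. Over all tested rows 2.21% were called and 14.7% had an unadjusted p under 0.05, so that counts of 0 among 3 genes do not set flocculins apart. FLO5 had a mean log2 ratio of −0.02 ± 0.33, FLO9 −0.30 ± 0.29 and FLO10 0.00 ± 0.29, while FLO1 and FLO11 had no value. Flocculin genes have repeats in common, so that their rows can share labelled cDNA.

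**Figure D5:**
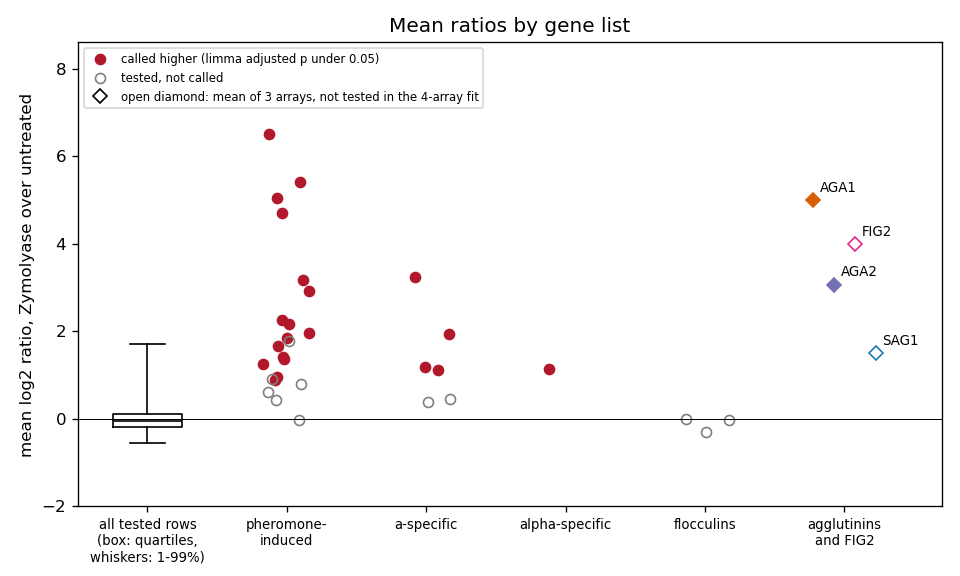
Mean log2 ratios (vertical axis) of the tested genes of each list, with all tested rows as a box (quartiles, whiskers at 1% and 99%); filled red points were called higher, open points were not, and open diamonds (FIG2, SAG1) are means of 3 arrays outside the 4-array fit. Of the pheromone-induced genes 16 of 22 were called, of the a-specific 4 of 6, of the alpha-specific 1 of 1 and of the flocculins 0 of 3.

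The genes that lie next to the 4 on their chromosomes, by the RefSeq table of assembly R64, had log2 ratios between −0.76 and 0.78 on single arrays, and 0 of the 4 that were tested were called by limma, with 1 (YCR090C) at an unadjusted p under 0.05. These counts lie near those over all tested rows, of which 2.21% were called and 14.7% had such a p. Beside AGA1, MVD1, of the mevalonate pathway, had −0.08, 0.54, −0.05 and −0.03 on arrays 1 to 4 (adjusted p = 0.8 by limma), and PET494 had −0.47 and 0.06 on arrays 3 and 4. Beside AGA2, the ribosomal protein gene RPL24A had a mean of −0.05 (adjusted p = 0.903), and HOP2 was blank. Beside FIG2, ABP1, an actin-binding protein gene, had a mean of 0.12 (adjusted p = 0.739) and YCR090C −0.42 (adjusted p = 0.301). Beside SAG1, MRX12 had −0.39 and 0.19 and APL1 0.51 and 0.23 on arrays 3 and 4. None of the 4 genes overlaps another gene of that table.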

How the data were processed

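Per the labels' protocols, Cy3- or Cy5-labelled cDNA was made from total RNA for 2-colour arrays. The authors deposited 1 table of log2 ratios; image analysis, background correction, normalization and the filter on rows: not given in the sources used here. Spot intensities were not used. The base and the shared numerator were read from the values. Of 6209 rows, 2 controls were left out, and 5654 of 6207 yeast rows matched a locus tag of the RefSeq gene table of assembly R64. For each of the 2 possible pairings of arrays into cultures, pair means were compared with 0 in limma 3.58.1 under R 4.3.3 by lmFit and eBayes. The larger p was adjusted by the Benjamini-Hochberg method over 2715 rows. The number of arrays limits the precision. The 4 genes and the lists were chosen with earlier results of these data known. Named genes were the 4, the 5 nearest rows of each, chromosomal neighbours, the 3 largest means of the pheromone list and all members of the smaller lists; others are marked. Alternatives covered pairing, centring, scale, variance model, rows, replicate unit, dye orientation and single arrays; every row with values on arrays 1, 3 and 4 was a further set, chosen after seeing the data. Promoter and protein features had been planned and were not analysed here.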

Additional observations from a re-analysis of the deposited data

Results flagged for a closer look

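MVD1, next to AGA1, had a log2 ratio of 0.54 on array 2 against −0.08 to −0.03 on the other arrays. The gap between that array and its nearest neighbour, as a share of the gene's whole range, was above Dixon's critical value for 4 samples. This held for 1 of 44 named genes with 4 values, and about 2.2 would meet it by chance. The gap relative to the range, not its size, sets the measure, and other named genes had larger gaps.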

How the results depend on the processing

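AGA1 and AGA2 were called in all 15 alternatives, with mean log2 ratios of 4.78 to 5.29 and 2.90 to 3.24 and adjusted p of at most 0.0106 and 0.0154 by limma. FIG2 and SAG1 kept their sign in the 10 alternatives that gave them a value. As all 3 values of each gene were well above 0, this was fixed in advance and is no check. Leaving out array 2, on which they were blank, left their means unchanged. On the Cy5-treated arrays alone, which for them is array 4, they had 6.19 and 1.96. Without 1 array their means were 2.89 to 4.57 and 1.27 to 1.72, those of AGA1 4.78 to 5.29 and of AGA2 2.93 to 3.23. Over all tested rows 60 were called; with the pairing 1+4 and 3+2 it was 277, of which 72.9% higher in place of 91.7%. It was 97 and 119 with 4 arrays as replicates without and with a dye term, 141 on arrays 1 and 3 (treated RNA in Cy3) and 22 over every row with values on arrays 1, 3 and 4. Without 1 array it ranged from 22 (array 2) to 129 (array 3, 77.5% higher). Both pairings of arrays into cultures were fitted. Because the main fit kept the larger p, a gene called there had to be called in each pairing alone, AGA1 and AGA2 included. A fold change of FIG2 is fixed only to its range over 3 arrays.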
